A study of Saposhnikovia divaricata with 9 samples.

Results

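The 74 most abundant clusters of group C leaves were followed over 3 groups of leaf libraries of Saposhnikovia divaricata, a medicinal plant of the carrot family. A cluster is the feature of the deposited expression table, and its level is given in FPKM, fragment numbers scaled by cluster length and by the mapped fragments of the library. The clusters were chosen by a mean of 1000 FPKM or more over the 3 C libraries, which 74 of 63753 clusters reached. The study compared leaves of plants aged 48 days without cold treatment with leaves of plants kept at 4 °C for 6 h or for 48 h, with 3 libraries each. The labels use the codes C, M and L, each with a replicate number from 1 to 3, and no label ties a code to the control or to a length of cold, so the codes are used as they stand. All 9 libraries came from leaves, and the labels give no genotype, treatment or plant of origin for a single library. The p-values below therefore measure the spread between libraries, which may be technical.

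In a leaf, a small number of genes supplies much of the messenger RNA. In green plants, nuclear genes for the small subunit of the carbon-fixing enzyme Rubisco and for chlorophyll a/b-binding proteins of the light-harvesting antennae are typical members of this top class. Chilling changes the levels of many plant transcripts, and in Arabidopsis part of this response runs through the CBF transcription factors and the COR (cold-regulated) genes they activate. The table used here pairs no cluster with a gene name, a description or a sequence, so none of the 74 clusters can be given a role and leaf marker genes could not be looked up. Members are named here by their rank by mean FPKM in C, with rank 1 the highest, and 4 identifiers are printed. All values are relative within a library, and in whole leaves a smaller number of cells of a type cannot be told apart from less RNA per cell.

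The number of sequenced fragments per library is unknown. Depth relative to C replicate 1, read from the steps in which values of 1 to 6 FPKM move, lay between 0.94 and 1.09 in the other 8 libraries. These estimates rest on few clusters in L, where 11 to 18 clusters shared the most frequent ratio. FPKM summed to between 863749 and 932785 per library. No pair of libraries held identical values.

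Within C, the 74 clusters ranged from just above the threshold to 24012 FPKM on average. The rank 1 cluster measured 21892, 25189 and 24955 FPKM in the C replicates 1 to 3, and the rank 2 cluster at 20416, 22827 and 23095 FPKM. The rank 3 cluster stood at 26500, 12060 and 21775 FPKM in C, so it was the highest of all clusters in C replicate 1 and lower than the rank 1, 2 and 4 clusters in C replicate 2. The median member had a C mean of 1843 FPKM. At the threshold, the last members inside had C means of 1006 and 1001 FPKM, and the nearest clusters outside had 992 and 963 FPKM. Of the 74 members, 53 reached 1000 FPKM in all 3 C libraries, 13 in 2 of them and 8 in a single one. The levels in C chose the members and are given as a description.

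**Figure D1:**
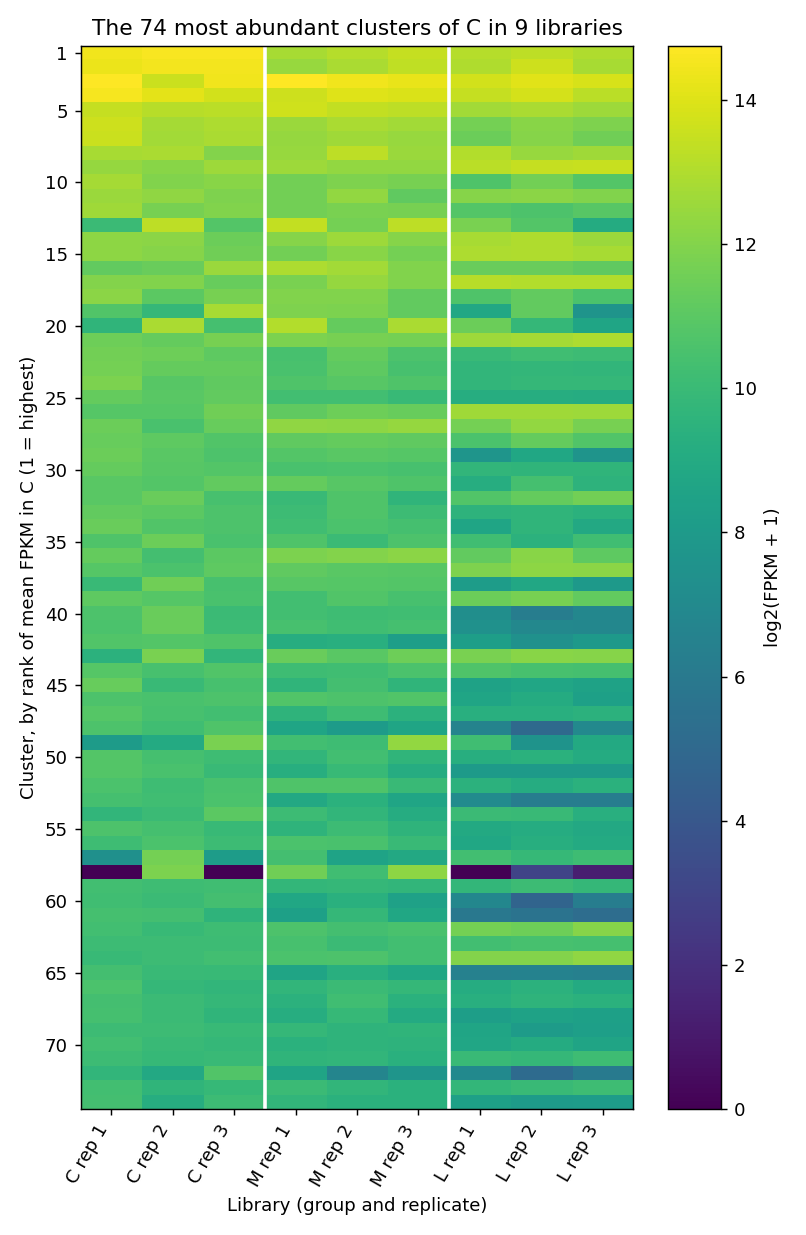
Level of each of the 74 clusters, as log2(FPKM + 1), with clusters in rows from rank 1 at the top to rank 74 and the 9 libraries in columns by group. Rows near the top stay bright in every library, several rows below rank 28 turn dark in the 3 L libraries, and the row of rank 58 is dark in C replicates 1 and 3 and in all 3 L libraries.

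Together the 74 clusters held a smaller part of all FPKM in M than in C, and a smaller part again in L. They held 30.7%, 28.1% and 26.7% in C replicates 1 to 3, 24.96%, 25.1% and 24.6% in M, and 20.8%, 21.8% and 19.6% in L. The groups did not overlap. The means were 28.5% ± 2.004 in C, 24.9% ± 0.272 in M and 20.7% ± 1.09 in L (SD, n = 3). Clusters picked for high values in C are prone to lower values elsewhere, so the step from C carries that choice, and no test was applied to the sum over members.

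The rank 1 and 2 clusters together held 5.15% ± 0.380 of all FPKM in C, 1.93% ± 0.506 in M and 2.03% ± 0.332 in L (SD, n = 3). Between C and M they accounted for 3.22 of the 3.61 percentage points by which the members' share was lower. The other 72 clusters held 23.4% ± 2.36 in C and 23.0% ± 0.735 in M, which overlapped, and 18.7% ± 0.773 in L, where every library lay below every M library. Ranks 3 to 5 held 5.61% ± 0.421 in M and 3.75% ± 0.345 in L, and ranks 11 to 74 held 14.1% ± 0.341 and 11.9% ± 0.456.

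**Figure D2:**
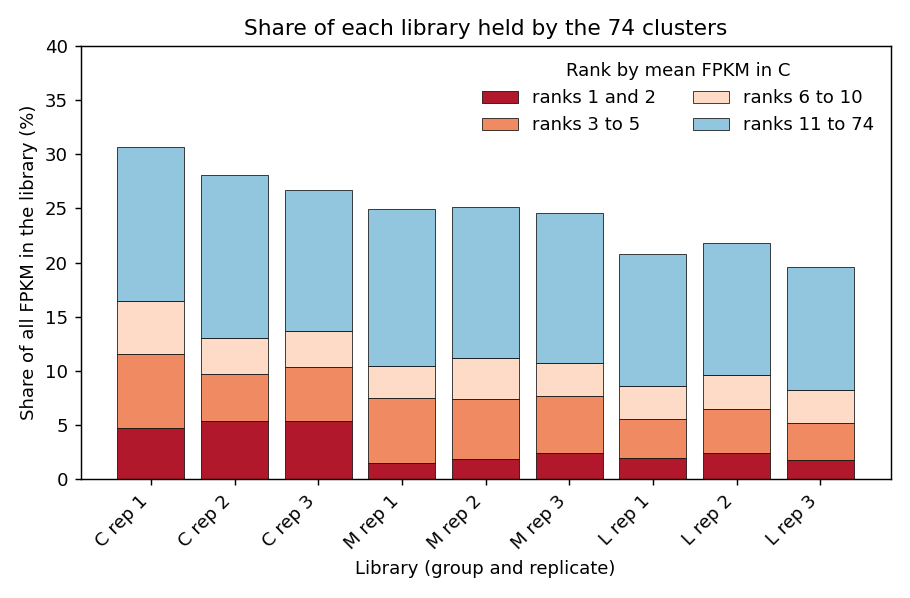
Share of all FPKM (%) held by the 74 clusters in each library, stacked by rank class. The whole bar falls from 26.7% to 30.7% in C to 24.6% to 25.1% in M and 19.6% to 21.8% in L, and the lowest segment, ranks 1 and 2, is tallest in the 3 C libraries.

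Of the 74 clusters, 51 still had a mean of 1000 FPKM or more in M and 38 in L, with 35 in both. All 9 libraries were at 1000 FPKM or more for 27 of them. The class of clusters at this level numbered 71 in M and 101 in L, so the members made up 71.8% of the class in M and 37.6% in L. Clusters outside the 74 that reached 1000 FPKM in a given library held 1.23% ± 0.586 of all FPKM in C, 3.40% ± 0.765 in M and 19.1% ± 2.47 in L (SD, n = 3). Here the threshold was applied to each library, while the classes of 71 and 101 are by group mean. The rule itself holds the C value low, since every cluster outside the 74 has a C mean under 1000 FPKM. No member averaged below 100 FPKM in M, while 7 did in L. The median of the members' means was 1451 FPKM in M and 1008 FPKM in L.

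The order at the very top also differed between groups. The rank 1 cluster stood at 7153, 8809 and 11258 FPKM in M and at 8838, 9971 and 8151 FPKM in L, which placed it at position 4 by mean in M and 7 in L. The rank 2 cluster stood at 5785, 7408 and 10190 FPKM in M and at 8026, 12387 and 7280 FPKM in L. Every M and L library lay below every C library for both clusters, and M and L overlapped. The rank 3 cluster was the most abundant of all clusters in every M and every L library, at 27493, 21829 and 19711 FPKM in M and 13542, 17132 and 15071 FPKM in L. The rank 4 cluster came second by mean in both, at 15034 ± 2009 FPKM in M and 11585 ± 2280 in L (SD, n = 3), after 18400 ± 4914 in C.

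Among ranks 5 to 10, most clusters were lower in L than in M, and 1 cluster, rank 9, was higher in every L library. Rank 9 stood at 6071, 5305 and 5250 FPKM in M and at 9711, 11203 and 11635 FPKM in L. Its 3 L values lay above all 6 values of C and M, and its log2 fold change of 0.97 ± 0.250 (SE) in L against M passed on the adjusted p of 0.012 but lay just under 2-fold (limma). Rank 5 averaged 11174 FPKM in M and 6744 in L, rank 6 averaged 6689 and 3835, and rank 7 averaged 5824 and 3334. For these 3 clusters no L library reached the lowest M library, with log2 fold changes of -0.72, -0.81 and -0.83 (limma, adjusted p = 0.052, 0.054 and 0.057). Rank 8 overlapped in all 3 groups, with means of 6213 FPKM in C, 7137 in M and 6948 in L. Rank 10 averaged 3434 FPKM in M and 2203 in L, with overlap between the libraries.

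The difference between the L and M means uses no library that chose the members, while its SE and p pool the spread within all 3 groups, C included. Each cluster was tested with limma on log2(FPKM + 1) in a fit over 35314 clusters, and was called at an adjusted p under 0.05 with at least a 2-fold difference. All 74 members were among the clusters tested. In L against M, 8 members rose and 22 fell, and with only the L and M libraries fitted 8 rose and 25 fell. Shares over all tested clusters were not taken from the fit of only L and M. The counts of 8 and 22 are 10.8% and 29.7% of the members, and over all tested clusters 5.99% were called higher and 25.7% lower. The median log2 fold change of the members was -0.74, with quartiles of -1.34 and 0.13, and that of all tested clusters was -0.55. Of the members, 29 lay above that median. In the next lower classes by C mean, 5.19% of 231 clusters from 300 to under 1000 FPKM were called higher and 33.8% lower, and 4.05% and 29.7% of 889 clusters from 100 to under 300 FPKM.

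The L and M libraries did not overlap for 48 members, beside 56.3% of all tested clusters, with every L library higher for 12 and lower for 36. Over all tested clusters, every L library was higher for 11.0% and lower for 45.3%. A further 2 members higher and 8 lower in L passed the adjusted p without reaching 2-fold, and 34 members did not pass it. The matching shares over all tested clusters were not taken. With values as deposited and all 9 libraries, none of the 10 most abundant clusters was called in L against M. All 30 calls in L against M came from the 64 clusters of ranks 11 to 74.

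**Figure D3:**
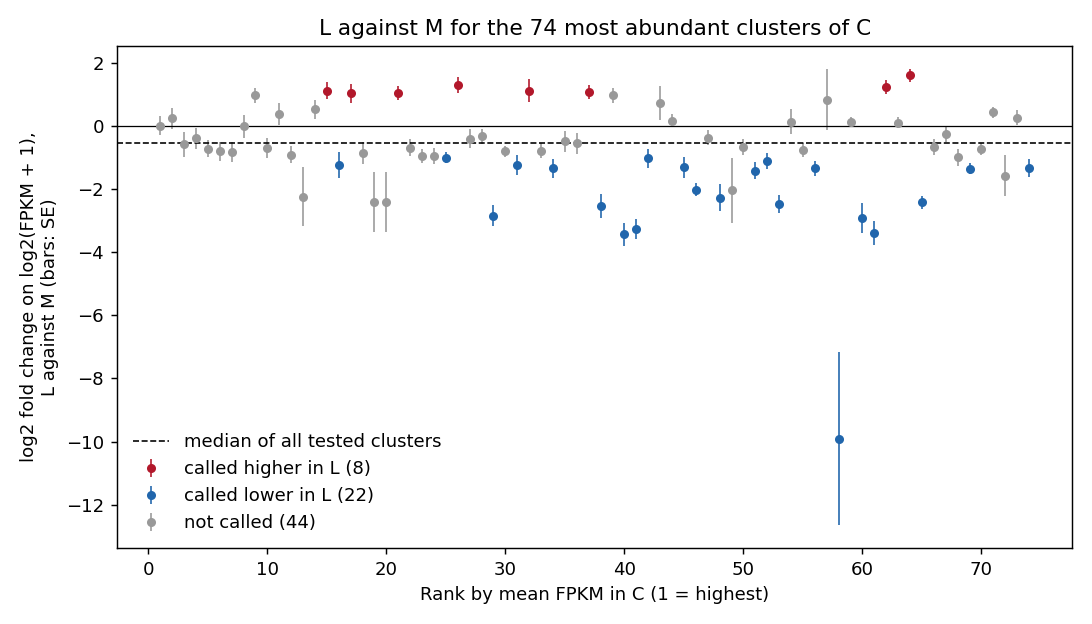
Log2 fold change of L against M (SE as bars) for each of the 74 clusters by rank in C, with the median of all tested clusters, -0.55, as a dashed line. The 8 clusters called higher lie between 1.03 and 1.61, the 22 called lower reach from -1.002 to -9.92, and ranks 1 to 10 hold no cluster called with values as deposited.

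The clusters that rose from M to L had means between 1142 and 4333 FPKM in M and between 2432 and 8706 FPKM in L. The largest rise was that of Cluster-17261.13057, rank 64. It stood at 1517, 1599 and 1230 FPKM in M and at 4172, 4078 and 4996 FPKM in L, after 987, 1116 and 1234 FPKM in C. All 3 L libraries stood well above the other 6, which overlapped. Its log2 fold change in L against M was 1.61 ± 0.203 (SE, limma, adjusted p = 0.000366), or 2.16 above the median of all tested clusters. Next came Cluster-17261.23386, rank 26, at 2308, 2911 and 2533 FPKM in M and 6405, 6362 and 6244 FPKM in L. The 3 L libraries were almost level and lay above every C library, the highest of which had 3013 FPKM. Its log2 fold change was 1.30 ± 0.250 (SE, limma, adjusted p = 0.00302). The other 6 that rose, ranks 15, 17, 21, 32, 37 and 62, had log2 fold changes from 1.03 to 1.23.

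The lowest fold change in L against M was that of Cluster-17261.10575, rank 58, at 2969, 1188 and 4798 FPKM in M and listed at 0 in L replicate 1, with 6.87 and 1.39 FPKM in L replicates 2 and 3. In C it was listed at 0 in replicates 1 and 3 and stood at 3632 FPKM in replicate 2, so its membership rested on 1 library. Its log2 fold change in L against M was -9.92 ± 2.74 (SE, limma, adjusted p = 0.0168), and its size followed the pseudocount, with -11.3 at 0.1 and -8.47 at 5. Without M replicate 3 or without L replicate 1 it no longer passed, and over the fits that leave out 1 library its adjusted p ran from 7.08e-05 to 0.0525 (limma). Cluster-17261.24242, rank 40, stood at 1269, 1132 and 1193 FPKM in M and at 156, 73.7 and 115 FPKM in L, 10.5-fold lower by the means. Its 3 C libraries held 1605, 2687 and 1078 FPKM. Its log2 fold change in L against M was -3.44 ± 0.357 (SE, limma, adjusted p = 0.000153), or -2.89 relative to the median of all tested clusters.

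Ranks 41, 61, 29 and 46 also fell in L against M. Rank 41 fell from 1308 ± 107 FPKM in M to 137 ± 35.6 in L, and rank 61 from 560 ± 307 to 47.9 ± 9.98 (SD, n = 3). Rank 29 fell from 1877 ± 113 to 278 ± 134 FPKM, and its C mean was 2128 FPKM. Rank 46 was even within C and M, at 1547 ± 67.6 and 1684 ± 84.9 FPKM, and fell to 423 ± 106 FPKM in L. For these 4 clusters no L library overlapped an M library, and the log2 fold changes ran from -3.40 to -2.02 (limma, adjusted p from 0.000125 to 0.000245). They were picked out after their values were seen.

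The balance of rises and falls hung on how libraries were scaled. With each library set to the same median, 18 members (24.3%) were called higher and 11 (14.9%) lower in L against M, beside 15.2% and 10.9% of all tested clusters. With quantile normalization 0 were higher and 39 (52.7%) lower, beside 11.2% and 11.5%. With each library set to the same sum over the clusters outside the 74, the numbers were 5 (6.76%) and 26 (35.1%), beside 5.38% and 28.1%. The median of all tested clusters moved from -0.55 as deposited to 0.05 and -0.03 with median scaling and quantile normalization. All 30 clusters called as deposited kept the sign of their fold change under these scalings, and no member was called in opposite directions by any pair of them. Called lower under all 4 were 11 clusters, ranks 29, 38, 40, 41, 46, 48, 53, 58, 60, 61 and 65, and called higher under all 4 were 0. The share of all tested clusters called under all 4 was not taken. Quantile normalization left positive fold changes that passed no call for all 8 that rose. Among the 10 most abundant clusters, it called ranks 5, 6, 7 and 10 lower in L against M (log2 fold changes -1.415, -1.47, -1.52 and -1.27). Median scaling called rank 9 higher (1.89).

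Single libraries decided part of these calls. Over the 9 fits that leave out 1 library each, 5 of the 8 rises and 16 of the 22 falls were called every time (limma). Rank 9, not called with all 9 libraries, was called higher without M replicate 1 or L replicate 1. The rises lost at least once were rank 17 (without M replicate 1 or 3 or L replicate 1 or 2), rank 21 (without L replicate 3) and rank 32 (without M replicate 1 or 3 or L replicate 2 or 3). Besides rank 58, the falls lost at least once were rank 16 (without M replicate 1 or 2 or any L replicate), rank 25 (without M replicate 1 or 2 or L replicate 3), rank 31 (without L replicate 1), rank 42 (without M replicate 1 or 2 or L replicate 2 or 3) and rank 52 (without M replicate 1 or 2).

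Against C itself the members can only be described, because the C libraries chose them. In M against C, 2 members were higher and 7 lower by the same thresholds, or 2.70% and 9.46% of them, with 8.16% and 4.71% over all tested clusters. In L against C, 8 were higher and 37 lower, or 10.8% and 50.0%, with 10.2% and 30.5% over all tested clusters. The median log2 fold change was -0.35 in M and -1.19 in L, beside -0.03 and -0.56 over all tested clusters. The balance of calls in L again hung on scaling. Median scaling gave 15 higher (20.3%) and 14 lower (18.9%) against C, beside 18.8% and 14.8% of all tested clusters. Quantile normalization gave 1 (1.35%) and 39 (52.7%), beside 15.1% and 16.7%. Scaling on the clusters outside the members gave 7 (9.46%) and 38 (51.4%), beside 9.43% and 33.9%. The members' median log2 fold change stayed negative under these scalings, at -0.28, -1.47 and -1.33 in that order. Over all tested clusters it was 0.04, -0.13 and -0.65. Both contrasts share the C libraries. By group means, 38 members (51.4%, beside 39.95% of all tested clusters) stepped down from C to M to L, 10 stepped up, 15 were highest in M and 11 lowest in M. For 13 of the 38 the libraries of all 3 groups were fully separated in that order, which is 17.6% of the members beside 11.8% of all tested clusters, and the choice of members for high C values enters both counts.

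**Figure D4:**
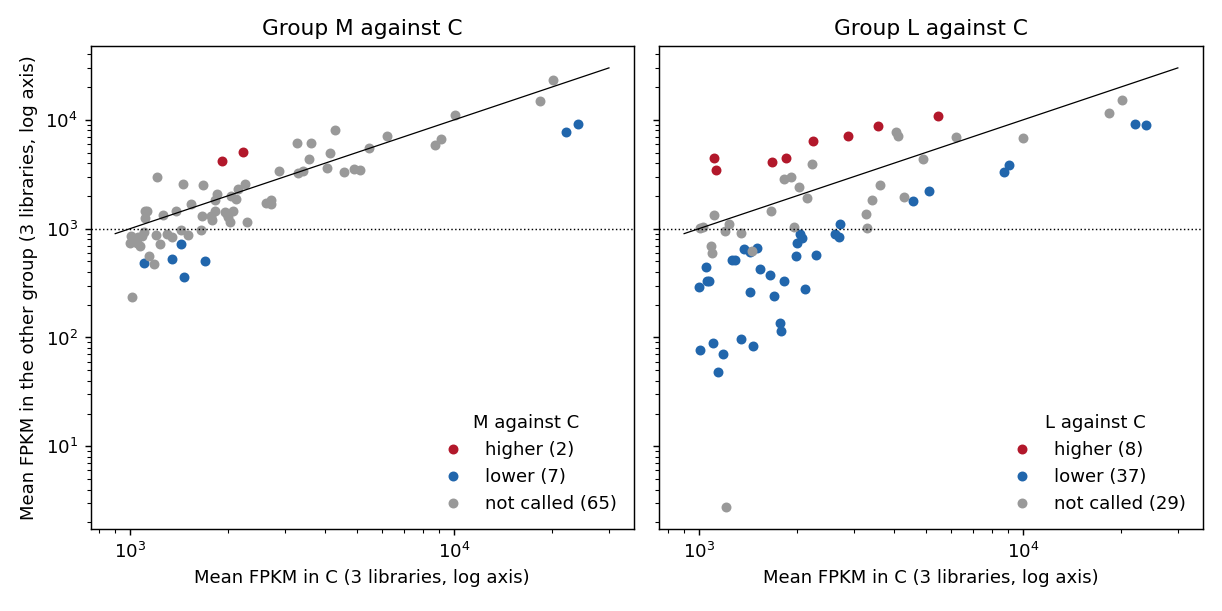
Mean FPKM of each of the 74 clusters in M (left) and L (right) against its mean in C, on log axes, coloured by call against C, with the line of equality and a dotted line at 1000 FPKM. In M the points lie along the line except ranks 1 and 2 at the right and a few at the left, and in L they spread below it, with 8 clusters called higher.

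The 2 members called higher in M against C were ranks 27 and 36. Rank 27 stood at 2738, 1442 and 2521 FPKM in C, at 4959, 4770 and 5490 FPKM in M and at 3256, 5202 and 3349 FPKM in L. Rank 36 ran alongside, at 2411, 1303 and 2070 FPKM in C, 3713, 4137 and 4601 FPKM in M and 2351, 4407 and 2165 FPKM in L. For both, all M libraries lay above all C libraries, and L replicate 2 was high while the other L libraries were within or above the range of C. The call of rank 27 was lost without C replicate 2 or any 1 of the M libraries, and that of rank 36 in each of the 9 fits that leave out 1 library except the one without L replicate 2. The lowest M values relative to C among called clusters were those of rank 48, with 1469 ± 233 FPKM in C, 360 ± 75.2 in M and 82.8 ± 45.4 in L, and rank 42, with 1704 ± 72.6, 506 ± 176 and 242 ± 66.6 FPKM (SD, n = 3). Next were the 2 most abundant clusters, 2.65-fold and 2.84-fold lower in M than in C by the means, and without M replicate 1 neither was called. Neither was called under median scaling or under quantile normalization, where their log2 fold changes were -0.79 and -0.74.

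In L against C, the clusters called lower with the largest fold changes were ranks 61, 48 and 60. Rank 61 averaged 1148 FPKM in C and 47.9 in L, rank 48 averaged 1469 and 82.8, and rank 60 averaged 1188 and 71.2. The largest fold changes among those called higher were 1.99 for rank 64, 1.69 for rank 43 and 1.59 for rank 62 (log2). Rank 43 stood at 714, 3517 and 819 FPKM in C, and C replicate 2 at 3516.9 FPKM lay just under the lowest L library at 3517.4 FPKM, so the groups were separated by less than 1 FPKM. Without C replicate 1 or 3, or without L replicate 2 or 3, it was not called. Among ranks 1 to 10, ranks 1, 2, 6, 7 and 10 were called lower in L against C and rank 9 higher, as deposited. With median scaling only rank 9 of these was called, and quantile normalization did not call rank 9.

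Clusters were also chosen on 1 C library at a time, and the other libraries were then read. Of the 73 clusters at 1000 FPKM or more in C replicate 1, 58 had a lower mean in the other C libraries, with a median log2 ratio of -0.38. The median ratio was -0.02 for the 78 clusters chosen on C replicate 2 and 0.03 for the 69 chosen on C replicate 3. With the choosing library left out of the fit, 7, 6 and 6 of the clusters so chosen were called lower and 1, 6 and 3 higher in M against C. In L against C, 41, 36 and 33 were called lower and 8, 9 and 7 higher. Shares over all tested clusters were not taken from these fits. With all 9 libraries, 4.71% of all tested clusters were called lower and 8.16% higher in M against C. In L against C these shares were 30.5% and 10.2%. The median log2 ratio to the mean of the C libraries not used for the choice ran from -0.34 to -0.20 for M and from -1.15 to -0.76 for L.

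A small set of members differed widely between libraries of 1 group. The 3 C libraries of 6 members spanned more than 5-fold, namely ranks 13, 19, 20, 49, 57 and 58. These C values also chose the members, and ranks 49, 57 and 58 reached 1000 FPKM in 1 C library only. The SD of log2(FPKM + 1) between C libraries was over 1 for 9.46% of the members, beside 8.35% of all tested clusters. Rank 13 stood at 1049, 10051 and 1767 FPKM in C, at 10953, 3285 and 9954 FPKM in M and at 3507, 1812 and 535 FPKM in L. Rank 20 had the same highs and lows, at 812, 7638 and 1373 FPKM in C, 8624, 2451 and 7437 FPKM in M and 2780, 917 and 405 FPKM in L. Both were high in C replicate 2 and in M replicates 1 and 3. Rank 57 was high in C replicate 2 alone, with 170, 3246 and 287 FPKM in C, between 373 and 1303 FPKM in M and between 943 and 1240 FPKM in L.

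Ranks 19 and 49 were high in C replicate 3 instead. Rank 19 stood at 1717, 911 and 7264 FPKM in C, between 2321 and 3782 FPKM in M, and at 454, 2367 and 194 FPKM in L. Rank 49 stood at 277, 526 and 3581 FPKM in C, at 1255, 1161 and 5263 FPKM in M and at 1207, 188 and 491 FPKM in L. None of ranks 13, 19, 20, 49 and 57 was called in any contrast with values as deposited and all 9 libraries. With quantile normalization ranks 19 and 20 were called lower in L against M (log2 fold changes -2.87 and -2.90). In L against M, rank 13 was called without C replicate 2, rank 19 without C replicate 3 or L replicate 2, and rank 20 without C replicate 2 or L replicate 1. In L against C, rank 19 was called without L replicate 2 and rank 57 without C replicate 2. Within M and L, which did not choose the members, the SD of log2(FPKM + 1) between libraries had a median of 0.30 and 0.22 among members, beside 0.25 and 0.31 among all tested clusters. For clusters with a C mean from 300 to under 1000 FPKM it was 0.19 in M and 0.26 in L. For those from 100 to under 300 FPKM it was 0.18 and 0.26.

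**Figure D5:**
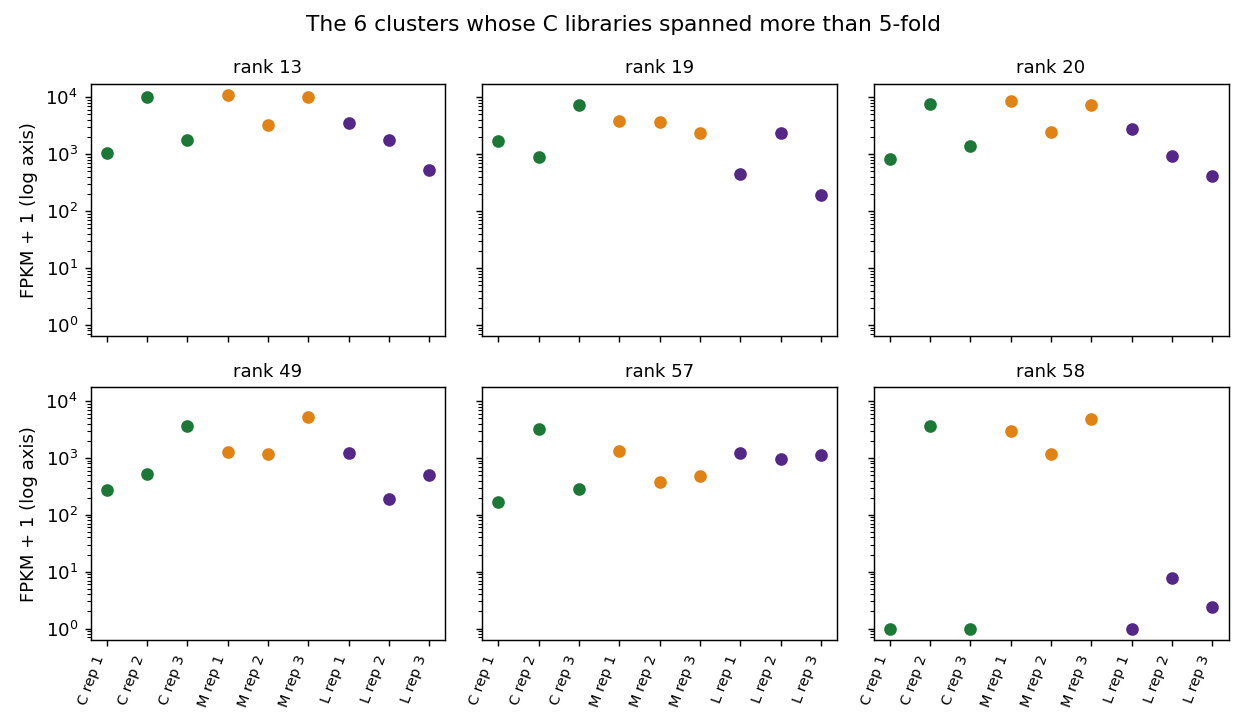
FPKM + 1 on a log axis in each library for the 6 clusters whose C libraries spanned more than 5-fold, with C in green, M in orange and L in purple. Ranks 13 and 20 share their high and low libraries, and rank 58 is above 1000 FPKM in C replicate 2 and the 3 M libraries and under 10 FPKM in the other 5.

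Some members kept a nearly fixed ratio to each other in all 9 libraries, a comparison that no single factor per library can change, although quantile normalization can. Among 2628 pairs of members above 0 in every library, the ratio moved by less than 1.5-fold over the libraries for 37 pairs and by more than 10-fold for 1049. The steadiest pair was ranks 21 and 37, whose ratio ran from 1.48 to 1.68 while each cluster moved more than 3-fold. The level of rank 21 ran from 2420 to 3334 FPKM in C and from 6246 to 7888 FPKM in L, and that of rank 37 from 1538 to 2161 and from 3772 to 4787 FPKM. Rank 9 followed them, at 1.48 to 1.94 times rank 21. Ranks 6 and 7 kept a ratio of 1.03 to 1.25, and ranks 7 and 10 one of 1.34 to 1.77, all with C replicate 1 highest and the lowest mean in L. A second such set held ranks 22, 33, 50 and 55, all 6 pairs of which were among the 10 with the least variable ratio.

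In 3 further pairs the ratio moved by less than 2-fold although the clusters themselves moved by more than 15-fold. These were ranks 13 and 20, with a ratio of 1.26 to 1.98, ranks 40 and 41, with 0.62 to 1.04, and ranks 53 and 65, with 0.83 to 1.55. Ranks 53 and 65 stepped down together, from 1349 ± 156 and 1103 ± 182 FPKM in C to 527 ± 150 and 485 ± 123 in M and to 96.6 ± 36.7 and 88.5 ± 2.33 in L (SD, n = 3). Near-identical clusters could share fragments, and whether these pairs do was not tested, since sequences were not used here.

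A few clusters barely moved. Rank 63 stayed between 1077 and 1407 FPKM in all 9 libraries, a 1.31-fold range. Rank 59 spanned 1.495-fold, rank 44 1.61-fold, rank 28 1.69-fold and rank 71 1.71-fold. For rank 63 the groups stood at 1114 ± 14.3 FPKM in C, 1240 ± 152 in M and 1328 ± 88.5 in L (SD, n = 3), and its log2 fold change in L against M was 0.10 ± 0.171 (SE, limma, adjusted p = 0.651). With median scaling that fold change became 1.025 and was called higher, and ranks 59, 44 and 71 were then also called higher in L against M (log2 fold changes 1.05, 1.09 and 1.35). Neither quantile normalization nor scaling on the clusters outside the 74 called any of these 5.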

How the data were processed

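Poly(A) RNA of leaves was sequenced in 9 libraries, 3 each of groups C, M and L, taken from the sample titles. The deposited table gives FPKM per cluster and library, named so in the deposited header and rounded to 2 decimals. The tools behind the table (assembly, alignment, counting, annotation) were not given in the sources used here. The labels' extraction text names retinas and their genome field a mouse build. Neither was used. All 9 value columns matched a sample title.

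Because FPKM values are not counts, no count test was run. Clusters at 1 FPKM or more in at least 3 libraries were kept (35314 of 63753). A linear model on log2(FPKM + 1) with the 3 groups was fitted with limma 3.58.1 (R 4.3.3, intensity trend, 6 residual and 2.88 prior degrees of freedom), with Benjamini-Hochberg adjustment over all clusters kept. The fit was tested on simulated data. Fold changes on this scale understate changes of low clusters. Without fragment counts, no counting intervals can be given, and a value of 0 may be a failed estimate. With 3 against 3 libraries an exact permutation p cannot go below 0.1, so none is given.

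The members and the thresholds were chosen with earlier results of these data known. Identifiers were printed for the 2 largest rises and 2 largest falls in L against M among members called whose libraries did not overlap. By rank, the text describes ranks 1 to 10, the threshold, the largest changes against C, clusters near 0 and the 5 steadiest. Ranks in other passages were chosen after their values were seen. Alternatives covered the pseudocount, filter, scaling, groups fitted, a replicate block, the trend, the fold threshold, single libraries left out and the choice of members.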

Additional observations from a re-analysis of the deposited data

How the results depend on the processing

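With median scaling 18 members were higher and 11 lower in L against M, 15 and 14 in L against C, and 0 higher in M against C. With quantile normalization 0 were higher and 39 lower in L against M, and 1 higher and 39 lower in L against C. Scaled on the clusters outside the 74, 5 were higher in L against M. For the 2 members higher in M against C, the count was 1 with a pseudocount of 0.1 and with only both groups fitted, and 0 without a filter, where 4 were lower. No pairing by replicate number was seen (same-numbered deviations correlated at -0.06 to 0.031), which with 3 libraries per group does not exclude one. With a replicate block, 0 were higher in M against C, and 8 rose and 22 fell in L against M. Shares over all tested clusters were not taken from the fits with the pseudocount, filter, groups fitted or replicate block changed.

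Of 165 clusters chosen at 500 FPKM, 11 were higher and 60 lower in L against M, 4 and 18 in M against C, and 12 and 84 in L against C, with shares of 35.3%, 31.3% and 24.7% in C, M and L. Of 33 chosen at 2000 FPKM, 5 were higher and 4 lower in L against M, 1 and 2 in M against C, and 4 and 14 in L against C, with shares of 22.1%, 19.3% and 16.2%. Over all tested clusters the same fit called 5.99% higher and 25.7% lower in L against M. In M against C it called 8.16% and 4.71% of all tested clusters, and in L against C 10.2% and 30.5%. Clusters chosen on C replicate 1 alone held 26.2%, 23.4% and 19.5%, with 1 higher in M against C. Chosen on C replicate 2, 6 were higher in M against C and the M share was 25.2%, and on C replicate 3 it was 24.3%. Requiring 1000 FPKM in each C library, added after seeing the data, left 5 higher in L against C. These last runs change which clusters enter, and those with a choice on 1 C library also leave that library out. Without C replicate 1 and with the members unchanged, 1 was likewise higher in M against C. The causes were not tested.

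Without single libraries, 6 to 9 members were higher and 19 to 24 lower in L against M, 0 to 2 and 4 to 10 in M against C, and 6 to 9 and 35 to 39 in L against C, and shares ran from 27.4% to 29.4% in C, 24.8% to 25.04% in M and 20.2% to 21.3% in L. The lowest counts in M against C came without an M library. Shares over all tested clusters were not taken from the fits without single libraries. Cluster-17261.13057 and Cluster-17261.23386 were not called with quantile normalization (log2 fold changes 0.87 and 0.65). Cluster-17261.24242 stayed called in every alternative run. The unknown fragment numbers limit all values.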

Other observations

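The members shared a property of their identifiers that the choice did not use. All 74 carry the parent number 17261, as do 69.8% of all clusters and 89.9% of those tested. Within that parent, 60 of the 74 have a second number between 23000 and 24999, a range picked after the numbers were seen, which holds 4.49% of the clusters of that parent. The range held 58.9% of the clusters with a C mean from 300 to under 1000 FPKM and 32.2% of those from 100 to under 300 FPKM. Of the clusters outside the 74 that averaged 1000 FPKM or more, 11 of 20 in M and 14 of 63 in L lay in it. How the numbers were assigned is not given in the sources used here.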
